A study of Mus musculus with 48 samples.

Results

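Malat1, Neat1, Meg3, Miat and Snhg11 are long noncoding RNAs that stay largely in the nucleus, and Rn45s is the precursor of the ribosomal RNAs. They were taken from the gene count table by symbol, and all 6 were found among its 23420 rows. Counts came from the striatum, the input region of the basal ganglia, whose main cells are medium spiny neurons, in 16 mice of about 50 days of age. Of these, 8 were wild-type C57BL/6J mice and 8 were 112kb congenic mice, which carry a segment of that size from another strain on the C57BL/6J background, and each genotype had 4 males and 4 females. As background knowledge of the line, the donor strain is DBA/2J and the segment, on chromosome 11, holds Hnrnph1, a gene of a splicing factor, and Rufy1. None of the 5 long noncoding RNAs lies on chromosome 11 in the annotation used here. No transgene or treatment is named for either group. The RNA of each mouse came from 3 mm punches of both hemispheres that were pooled, and its library was run on 3 lanes, which were summed here so that n counts mice. A level is given as counts-per-million (CPM), a share of all gene counts of the mouse.

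Malat1 collects in nuclear speckles, bodies that store splicing factors, and Neat1 is the scaffold of paraspeckles, which hold RNA-binding proteins. Meg3 is an imprinted RNA made from the maternal copy of the Dlk1-Dio3 domain, Miat (also called Gomafu) is a neuronal RNA that forms its own nuclear spots and binds splicing factors, and Snhg11 is a neuronal host transcript of small nucleolar RNAs. Rn45s is made in the nucleolus by RNA polymerase I and is cut into the ribosomal RNAs, a different machinery from the RNA polymerase II that makes the other 5. The design text of the series gives a library selected with oligo-dT, which keeps RNA that holds a run of A, so the 3′ ends of these transcripts bear on how they are counted. How Rn45s passed this selection was not tested. Its CPM is thus a share of the counts of the selected library and need not follow the amount of precursor in the tissue. Because the ribosomal RNAs are cut from it, their reads may count to the same row, and precursor and mature RNA were not told apart.

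The 3′ elements of Malat1 and of the long form of Neat1 are shown because both RNAs are known to end, not in an added poly(A) tail, but in an A-rich tract that folds with a pair of U-rich stretches into a triple helix. Both lie on the minus strand of chromosome 19 in NCBIM37 (mm9), at chr19:5795982-5796099 for Malat1 and chr19:5824708-5824818 for Neat1. Capitals mark the U-rich stretches (TTTCTTTT, and GC between runs of at least 4 T) and the run of at least 5 A followed by GCAAAA, written as DNA from 5′ to 3′.
Malat1 3′ element: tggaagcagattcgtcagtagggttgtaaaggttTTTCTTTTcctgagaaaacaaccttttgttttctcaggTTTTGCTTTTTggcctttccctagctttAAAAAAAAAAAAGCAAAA
Neat1 3′ element: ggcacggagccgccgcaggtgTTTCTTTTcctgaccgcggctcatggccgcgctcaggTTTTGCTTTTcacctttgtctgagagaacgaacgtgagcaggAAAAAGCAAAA
The A tract had 12 A before GCAAAA in Malat1 and 5 in Neat1. In Malat1 it lay 292 bases before the annotated 3′ end, and in Neat1 the annotation ended with the tract. The longest run of A in the exon model was 12 in Malat1, 7 in Neat1, 16 in Meg3, 4 in Miat and 9 in Snhg11. A run of at least 12 was found in 8.81% of 21075 annotated gene models and in 28.1% of the 2242 models at least as long as that of Malat1. Meg3 alone of the 5 had several runs of 10 or more, with 6, while 15.1% of all models had at least 1. Most of those models are shorter, and of the 48 at least as long as that of Meg3, 22.9% held a run of at least 16. A run of 5 A followed by GCAAAA was found in 192 models (0.911%), among them Malat1, Neat1 and Snhg11. The share was higher among long models, at 3.21% of the 2242 models at least as long as that of Malat1, 3.52% of the 1249 as long as that of Snhg11 and 23.8% of the 21 as long as that of Neat1.

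The short form of Neat1 shares the 5′ part of the long form and ends at a poly(A) signal. Its last 60 annotated bases are shown because the counts on either side of this annotated end differed. They lie on the minus strand at chr19:5842307-5842366 in NCBIM37, with the poly(A) signal AATAAA in capitals.
Neat1 short form, 3′ end: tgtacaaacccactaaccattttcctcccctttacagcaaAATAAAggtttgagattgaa

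Promoters of Meg3 and Snhg11 are shown because the levels of this pair of RNAs moved together across mice. Each stretch of 170 bases ends 50 bases after the annotated start and comes from RefSeq on GRCm38.p6, on the plus strand, at chr12:109540876-109541045 for Meg3 and chr2:158375593-158375762 for Snhg11. Capitals mark CCAAT, TGACGTCA and TATAAA on either strand, and GGGCGG was searched as well.
Meg3 promoter: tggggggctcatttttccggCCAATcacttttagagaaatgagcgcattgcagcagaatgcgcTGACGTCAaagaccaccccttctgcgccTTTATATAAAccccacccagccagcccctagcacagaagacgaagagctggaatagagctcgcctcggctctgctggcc
Snhg11 promoter: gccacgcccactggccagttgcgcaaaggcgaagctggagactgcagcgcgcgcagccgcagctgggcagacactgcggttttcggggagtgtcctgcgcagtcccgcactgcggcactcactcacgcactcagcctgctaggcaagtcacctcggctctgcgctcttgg
The Meg3 window held CCAAT with its first base at position -100, TGACGTCA at -57 and TATAAA at -25, relative to the annotated start, with a second TATAAA match on the other strand that overlaps the first. Over all 32851 windows of 300 bases in the table, CCAAT was present in 37.4%, TGACGTCA in 1.79%, TATAAA in 13.6% and GGGCGG in 35.7%. The Snhg11 and Malat1 windows of 300 bases held none of these 4 strings, and the Miat window held GGGCGG once. A match is a description of the letters only.

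Summed counts ran from 73.1 M to 82.0 M per mouse (M for the mega prefix), and the 6 RNAs took 1.11% to 1.63% of them, with a median of 1.32%. Striatal markers were present in every mouse: Ppp1r1b (DARPP-32) was at 1697 to 2264 CPM, the dopamine receptor Drd1a at 264 to 330 CPM and Drd2 at 184 to 244 CPM. Slc17a7, the glutamate transporter of cortical neurons, ranged from 20.9 to 192 CPM, so the punches differed in that marker. Mice are named here by Sample_ and their number. The wild-type mouse Sample_4806 stands apart from its label: it is labelled female but had 2.73 CPM of Xist, the RNA of the inactive X, where the other 7 females had 958 to 1535 CPM, and it held 7 counts of Y-linked genes where males held at least 13555. Many results are given with and without it, but not all, and the interaction of genotype with sex was fitted only with it. In a bulk sample, fewer cells of a type and less RNA per cell cannot be told apart.

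Malat1 was at 1870 ± 319 CPM (SD, n = 16), from 1453 CPM in mouse Sample_4672 to 2408 CPM in mouse Sample_4739, with a median of 1781 CPM. Wild-type males had the lower levels, 1453 to 1737 CPM, congenic males 1736 to 2255, wild-type females 1587 to 2374 and congenic females 1521 to 2408, so all 4 groups overlapped. The male groups met only at their ends, with means of 1631 CPM in wild-type and 2014 CPM in congenic males. Among females the means were 1998 CPM in wild-type and 1838 CPM in congenic mice. Neat1 was at 240.0 ± 27.5 CPM (SD, n = 16), with 206 CPM in mouse Sample_4733, a median of 233 CPM and 305 CPM in mouse Sample_4739. Its congenic mice spread more widely, with an SD of 35.4 CPM against 16.4 CPM in the wild-type mice (n = 8 each), and a difference in spread was not tested. Mouse Sample_4739, a congenic female, was highest for both of these neighbouring genes.

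Meg3, which neurons of many brain regions express, was at 5671 ± 508 CPM (SD, n = 16), with 4595 CPM in mouse Sample_4672, a median of 5666 CPM and 6528 CPM in mouse Sample_4731. The 4 congenic females lay within 5602 to 5644 CPM, while the 4 congenic males ran from 5052 to 6528 CPM. Snhg11 was at 2518 ± 216 CPM (SD, n = 16), with 2039 CPM in mouse Sample_4672, a median of 2560 CPM and 2844 CPM in mouse Sample_4806. Mouse Sample_4672, a wild-type male, was lowest for Malat1, Meg3, Miat and Snhg11, though not for Neat1 or Rn45s.

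Miat and Rn45s varied most among mice. Miat was at 206 ± 52.7 CPM (SD, n = 16), with 140.4 CPM in mouse Sample_4672, a median of 209 CPM and 299.9 CPM in mouse Sample_4806, a range of 2.14-fold. Its upper end held a mouse of each genotype, Sample_4806 and the congenic female Sample_4804 at 299 CPM. Rn45s was at 2592 ± 738 CPM (SD, n = 16), with 1595 CPM in the congenic male Sample_4671, a median of 2492 CPM and 4390 CPM in mouse Sample_4806, a range of 2.75-fold. The next highest mouse was the congenic female Sample_4804 with 3760 CPM. The plot of levels by mouse shows these 2 wide distributions beside the narrower ones.

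**Figure D1:**
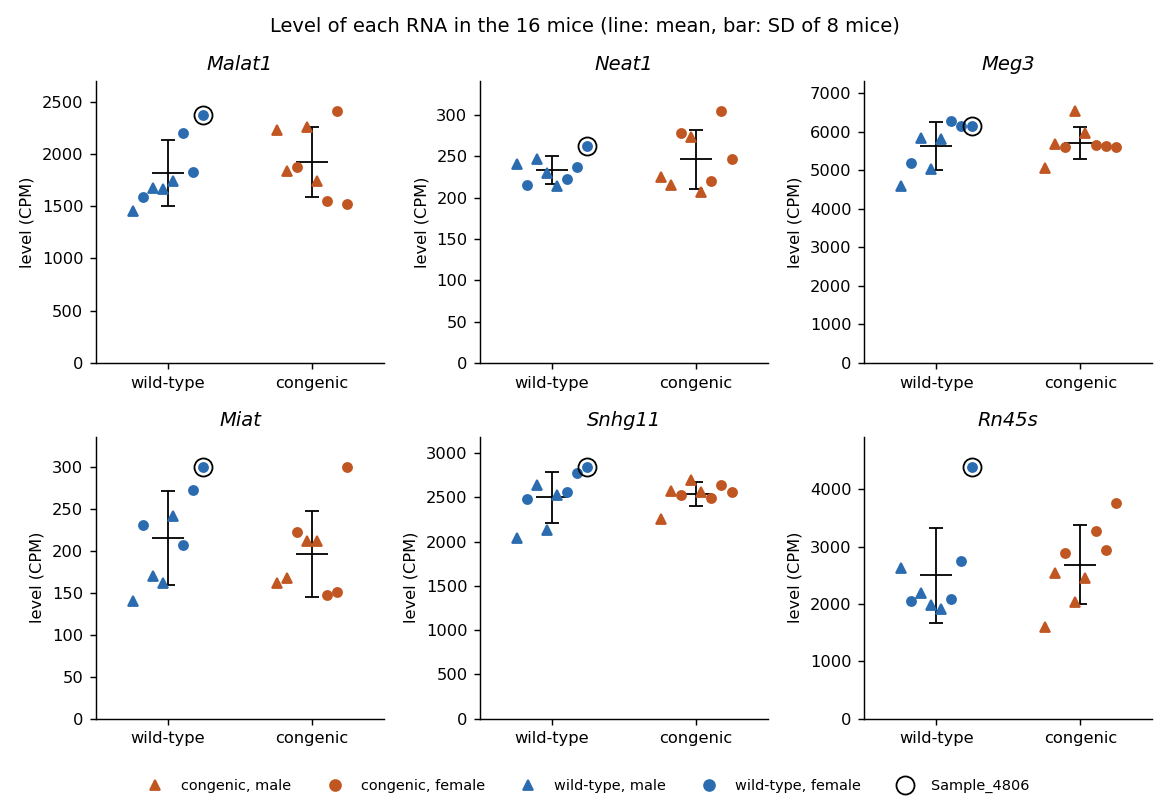
Level of each of the 6 RNAs in CPM (vertical axes from 0) in 8 wild-type (blue) and 8 congenic (orange) mice, triangles for males and circles for females, with the mean and SD of each genotype in black and mouse Sample_4806 ringed. The genotypes overlap in every panel, and Rn45s runs from 1595 to 4390 CPM while Snhg11 runs from 2039 to 2844 CPM.

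The coefficient of variation among mice was 28.5% for Rn45s, 25.6% for Miat, 17.1% for Malat1, 11.4% for Neat1, 8.95% for Meg3 and 8.56% for Snhg11. Between the 3 lanes of a library the median coefficient was 0.441% for Rn45s, 1.56% for Miat, 0.574% for Malat1, 1.16% for Neat1, 0.232% for Meg3 and 0.392% for Snhg11. The spread between mice was thus far wider than between runs of a library, which do not test the preparation of the library. Over 11710 genes with a mean of at least 5 CPM the median coefficient among mice was 7.27%. Only 0.871% of these genes varied more than Rn45s, 1.07% more than Miat and 3.23% more than Malat1, against 14.3% for Neat1, 31.0% for Meg3 and 34.6% for Snhg11. Among the 2413 genes with a mean of at least 100 CPM, 0.207% varied more than Rn45s and 0.870% more than Malat1.

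Exon bins, stretches of exon shared by the same set of transcripts, gave levels per length, as CPM over the gene table total per kb of bin (CPM per kb). Positions are on NCBIM37, the build whose GENCODE annotation gave the deposited number of bins for all 5 long noncoding RNAs. Averaged over bins of at least 200 bases by length, Snhg11 was at 332, Meg3 at 329, Malat1 at 273, Miat at 24.3 and Neat1 at 10.01 on this scale. The Neat1 value was lowered by bin 1, 17599 bases of the long form alone at 0.0333. The median over bins of at least 200 bases was 86.7 for Neat1 and 24.8 for Miat. Snhg11 (chr2:158201374-158211881, plus strand), Meg3 (chr12:110779211-110809936, plus strand) and Malat1 (chr19:5795690-5802671, minus strand) thus lay at least 10 times above Miat (chr5:112642248-112657968, minus strand) per length. Rn45s has no exon bins in the deposited table and is given without a position. The bins of Meg3 are joined with those of Mir770 and Mir1906-1, and those of Snhg11, which this annotation calls protein coding, with SNORA71.

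Neat1 (chr19:5824708-5845478, minus strand) was counted almost wholly over its short form. Bin 1, the 17599 bases found in the long form alone (chr19:5824708-5842306), held 23 to 83 counts per mouse with a median of 44. Bin 2, the last 1374 bases of the short form (chr19:5842307-5843680), held 5555 to 9409 counts with a median of 6881. On the scale per length the means were 0.0333 for bin 1 and 65.5 for bin 2, a ratio of 1125 to 4247 with a median of 1914 over the 16 mice. The border between these bins is set by the annotated 3′ end of the short form, printed above, so the bins cannot place the drop more finely. How much of the drop comes from selection by oligo-dT was not tested.

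Malat1 was covered over its whole body, more evenly than Neat1. The 4451 bases of bin 8 held 286 on that scale and the 403 bases of bin 14 near the 5′ end held 404. Towards the 3′ end the level was 225 in bin 5 and 129 in bin 4, which contains the A tract, and 30.2 in the 92 bases of bin 3 beyond it. Meg3 held 1416 in bin 9, 707 in bin 31 and 227 in bin 34, its longest with 7605 bases, and bin 35 of 331 bases held 0 counts in all 16 mice. Snhg11 had 72.6% of its exon counts in bin 23, its last exon stretch of 4550 bases, at 468, while bins 10, 16 and 18 lay at 12.5, 16.3 and 13.1. Miat held 24.8 in bin 1, its last exon of 7008 bases, 27.1 in bin 3 and 6.85 in bin 7 at the 5′ end. A read across a border counts in both bins, so short bins are raised.

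**Figure D2:**
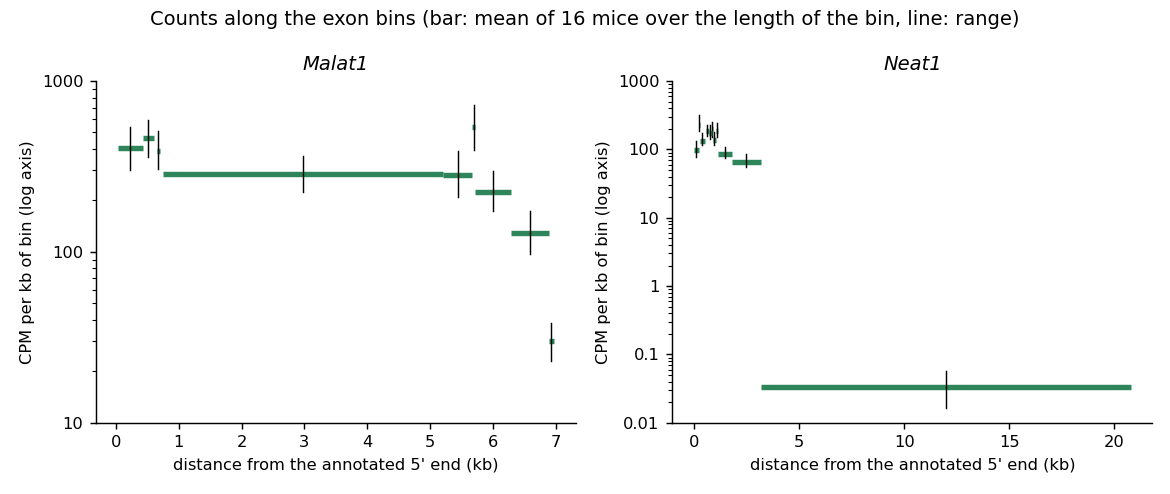
CPM per kb of bin (log axes) along Malat1 and Neat1 by distance from the annotated 5′ end in kb, each green bar an exon bin of at least 50 bases at the mean of 16 mice and each black line the range over the mice. The long-form stretch of Neat1 lies at 0.0333 where the end of the short form lies at 65.5.

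Congenic and wild-type mice did not differ detectably in any of the 6 RNAs. The series names differential splicing between these genotypes as its question, and the gene-level comparison tests whether the segment goes with a change in amount. Across all genes, edgeR's quasi-likelihood test called 0 of 16716 (0%) at an adjusted p under 0.05, with 256 at an unadjusted p under 0.05. DESeq2 also called 0, with 268, and limma-voom 0, with 277. Of the 6 RNAs 0 passed and 0 were at an unadjusted p under 0.05, and their adjusted p in edgeR was 0.999 throughout.

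Malat1 was at 1926 CPM in the congenic group and 1815 CPM in the wild-type group, a log2 fold change of 0.10 (SE 0.11) with a 95% interval of -0.14 to 0.34. Neat1 was at 246 and 234 CPM, with 0.08 (-0.07 to 0.23). Meg3 was at 5715 and 5628 CPM, with 0.03 (-0.10 to 0.16). For Snhg11, at 2538 and 2498 CPM, the value was 0.03 (-0.09 to 0.14), so for this pair the data bound a difference to within 0.16 on the log2 scale. Miat was at 196 and 215 CPM, with -0.11 (-0.45 to 0.22), while the cortical excitatory neuron markers, with which Miat moved across mice, had a median of -0.38 with 0 of 10 positive, and their part in the value of Miat was not tested. Rn45s was at 2686 and 2498 CPM, with 0.09 (-0.22 to 0.40), or 0.21 without mouse Sample_4806 (adjusted p = 0.986 in edgeR). The wide intervals of Miat and Rn45s leave room for differences that these 16 mice could not show.

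Genes that work with these RNAs were likewise not called by genotype. Of the 7 tested genes of the Dlk1-Dio3 domain, which Meg3 shares with Rian and Mirg, 0 passed, with a median log2 fold change of 0.008 against 0.001 over all genes. The paraspeckle proteins had 0 of 16 and a median of -0.01, and the nuclear speckle proteins 0 of 18 and 0.02. That speckle list also holds Qk and Celf3, RNA-binding proteins that are not core members of speckles. Other host transcripts of small RNAs had 0 of 12 and 0.07, and other long noncoding RNAs of brain 0 of 21 and 0.05. Of the RNA polymerase I and ribosome biogenesis genes, which make and trim the Rn45s transcript, 0 of 31 passed, with 0.009, and small RNAs made by RNA polymerase III or lacking a tail had 0 of 5, with a median of 0.23 and 5 of 5 positive. Of the 11 such small RNAs that were counted, 0 had a mean of at least 1 CPM, so these values lie near the floor. Their smallest unadjusted p was 0.237 in edgeR. Cytosolic ribosomal proteins had 0 of 39, with a median of 0.09, 38 positive and 2 at an unadjusted p under 0.05, and immediate early genes 0 of 22, with 0.07. The summed level of the ribosomal proteins had a median of 7890 CPM over the mice. It was highest in the congenic male Sample_4673, at 11051 CPM, where wild-type mice reached 8313 CPM. The part of this mouse in the signs of that list was not tested. The 9 lists of cell type markers (medium spiny neuron, cortical excitatory neuron, pan-neuron, astrocyte, oligodendrocyte, microglia, endothelial and mural, ependyma and choroid plexus, blood) also had 0 called. Among them the cortical excitatory neuron markers had 0 of 10 positive, with a median of -0.38, and the pan-neuron markers 0 of 8, with -0.05, against 51.1% positive over all genes, and 0 of either list were at an unadjusted p under 0.05.

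Exon use of the long noncoding RNAs did not differ detectably by genotype either. With edgeR's diffSpliceDGE, which sets a bin against the rest of its gene, 1 of 14875 genes (0.00672%) and 1 of 235478 bins (0.000425%) were called, and the called gene was none of these. Of 13 tested bins of Malat1, 13 of Neat1, 34 of Meg3, 7 of Miat and 23 of Snhg11, 0 were at an unadjusted p under 0.05. Over all tested bins 2461 (1.05%) were, so a 0 among so few bins is near that share and says little about these RNAs. The smallest p belonged to Neat1 bin 1, the long-form stretch, with a log2 fold change of 0.27 (p = 0.0798, adjusted p = 1 in edgeR). That bin held so few counts that a change in the share of the long form is weakly bounded.

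Between the sexes, Rn45s had the largest difference of the 6 but did not pass over all genes. Males had 1595 to 2633 CPM with a median of 2112 CPM, and females 2048 to 4390 CPM with a median of 2918 CPM, so the sexes overlapped. The log2 fold change, male minus female, was -0.45 (SE 0.15; 95% interval -0.76 to -0.13; p = 0.00862, adjusted p = 0.211 in edgeR), and -0.33 without mouse Sample_4806 (adjusted p = 0.368 in edgeR). Across all genes 23 of 16716 (0.138%) were called by sex, and 0 of the 6 RNAs were among them. At an unadjusted p under 0.05 there were 2464 genes (14.7%). The males run from Sample_4671 to Sample_4734 and 6 of the 8 females have higher numbers, so sex cannot be told apart from whatever the numbers stand for.

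Miat had -0.28 (SE 0.16; adjusted p = 0.417 in edgeR), at 183 CPM in males and 229 CPM in females. The cortical excitatory neuron markers had a median of -0.51, positive for 2 of 10, with 0 at an unadjusted p under 0.05 and 0 called, and a summed level of 206 to 461 CPM in males and 197 to 503 CPM in females, and their part in the value of Miat was not tested. Snhg11 had -0.08 (adjusted p = 0.510), Neat1 -0.07 (adjusted p = 0.646), Malat1 -0.05 (adjusted p = 0.846) and Meg3 -0.03 (adjusted p = 0.837), all in edgeR. With each mouse left out, Sample_4806 among them, the sex value of Miat ran from -0.35 to -0.20 and that of Snhg11 from -0.10 to -0.05. Malat1 had the smallest p of the 6 for an interaction of genotype with sex, with 0.39 (p = 0.0792, adjusted p = 0.967 in edgeR). This fit was not repeated without mouse Sample_4806, which had the highest Malat1 of the wild-type mice. The interaction test called 0 of 16716 genes (0%), with 698 at an unadjusted p under 0.05, and limma-voom called 0, with 722. Among other long noncoding RNAs of brain, 2 of 21 fell in males: Xist, with -8.17 (adjusted p = 0.00418 in edgeR), and Jpx, an activator of Xist, with -0.48 (adjusted p = 0.0118 in edgeR). Without mouse Sample_4806 these values were -8.46 and -0.50 (adjusted p = 6.54e-06 and 0.0125 in edgeR).

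**Figure D3:**
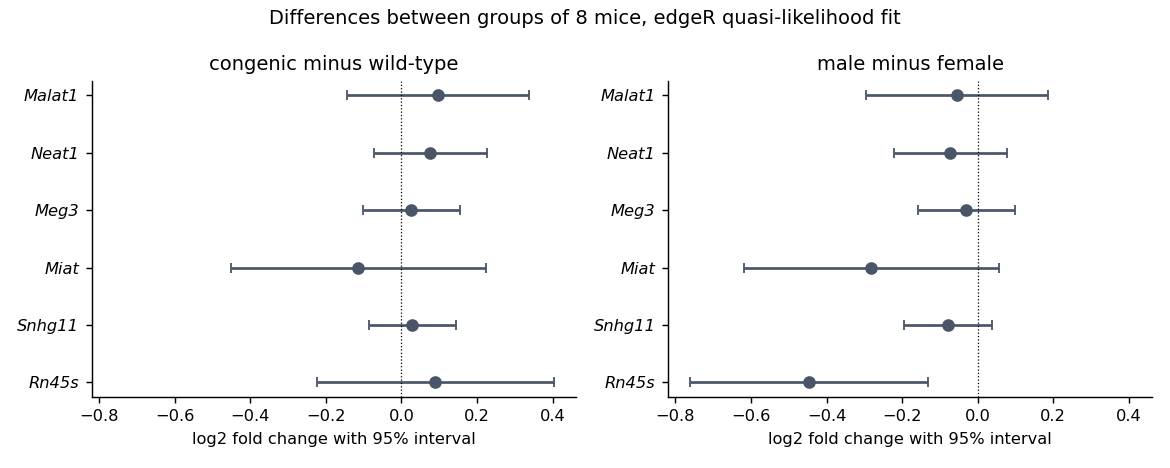
Log2 fold change of each RNA between groups of 8 mice (points) with its 95% interval (bars), congenic minus wild-type on the left and male minus female on the right. All 6 intervals on the left span 0, and on the right that of Rn45s runs from -0.76 to -0.13.

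Several gene lists had sex values mostly of the opposite sign to that of Rn45s, where 47.95% of all genes were positive, with a median of -0.005, and 14.7% were at an unadjusted p under 0.05. All 11 tested medium spiny neuron markers had a positive male minus female value, with a median of 0.12, 4 at an unadjusted p under 0.05 and 0 called, and their summed level was 9314 to 10788 CPM in males and 8646 to 10392 CPM in females. Drd1a had 0.13 (adjusted p = 0.193 in edgeR). Of 22 immediate early genes, which neurons switch on with activity, 20 were positive, with a median of 0.63, 16 at an unadjusted p under 0.05 and 0 called. Their summed level was 846 to 1947 CPM in males and 717 to 1135 CPM in females. Microglia markers were positive for 8 of 9, with a median of 0.15 and 6 at an unadjusted p under 0.05, and cytosolic ribosomal proteins for 37 of 39, with 0.10 and 11. The oligodendrocyte markers had the sign of Rn45s, with 1 of 10 positive, a median of -0.08 and 2 at an unadjusted p under 0.05, and 0 of these 3 lists' genes were called. Their summed levels in males and females were 533 to 619 and 513 to 595 CPM for microglia, 7157 to 11051 and 7335 to 8313 CPM for ribosomal proteins, and 8972 to 12129 and 8105 to 12858 CPM for oligodendrocytes. The 11051 CPM was that of mouse Sample_4673, and its part in the sex values of the ribosomal proteins was not tested. The part of any of these levels in the Rn45s difference was not tested.

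The 5 long noncoding RNAs did not move detectably with Rn45s across the 16 mice. Pearson's r of log2 CPM was tested by permutation with 100000 resamples and adjusted over the 15 pairs of the 6 RNAs. Against Rn45s it was -0.03 for Malat1 (95% interval -0.52 to 0.47; rho -0.04; permutation p = 0.899, adjusted p = 0.899). Neat1 had 0.39 (-0.13 to 0.74; rho 0.44; permutation p = 0.133, adjusted p = 0.250) and Snhg11 0.41 (-0.10 to 0.75; rho 0.44; permutation p = 0.110, adjusted p = 0.235). For Miat r was 0.35 (-0.17 to 0.72; rho 0.18; permutation p = 0.178, adjusted p = 0.297) and for Meg3 0.20 (-0.33 to 0.63; rho 0.07; permutation p = 0.467, adjusted p = 0.637). The permutation p of rho was 0.0941 for Neat1, 0.0932 for Snhg11, 0.512 for Miat, 0.805 for Meg3 and 0.873 for Malat1. Intervals of this width do not exclude moderate relations.

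Values of this size were common among all genes. Of 11707 genes with a mean of at least 5 CPM, 39.6% had an r against Rn45s at least as far from 0 as Snhg11 had, 43.1% as Neat1, 48.7% as Miat, 72.7% as Meg3 and 95.3% as Malat1. Without mice Sample_4671 and Sample_4806, the farthest from the median of Rn45s, r was 0.31 for Neat1, 0.13 for Snhg11, 0.05 for Miat, -0.10 for Meg3 and -0.20 for Malat1. Without mouse Sample_4806 alone it was 0.33, 0.27, 0.15, 0.08 and -0.34 in the same order.

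**Figure D4:**
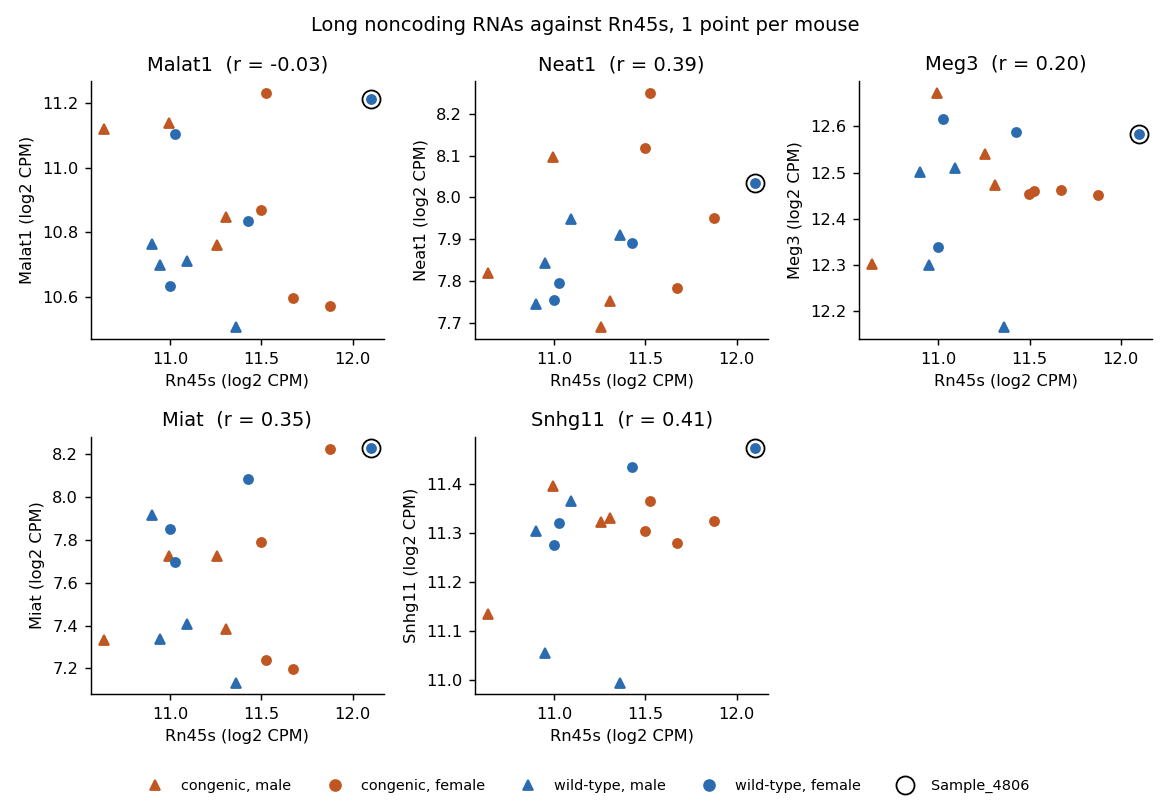
Each long noncoding RNA (vertical axes, log2 CPM) against Rn45s (horizontal axes, log2 CPM), with 1 point per mouse, blue for wild-type, orange for congenic, triangles for males, circles for females and mouse Sample_4806 ringed. Points scatter in all 5 panels, with r from -0.03 for Malat1 to 0.41 for Snhg11, and the ringed mouse lies at the right edge.

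Within groups of 8 mice the values spread further. Neat1 against Rn45s had r = 0.83 in wild-type mice (exact permutation p = 0.00789, adjusted p = 0.0408 over the 15 pairs), 0.17 in congenic mice, -0.09 in males and 0.43 in females. Without mouse Sample_4806 the wild-type value was 0.66 and did not pass (exact permutation, adjusted p = 0.383). Malat1 against Rn45s had -0.65 in congenic and 0.54 in wild-type mice, and -0.20 in wild-type mice without mouse Sample_4806, so the positive value rested on that mouse. In males Malat1 had -0.62 and in females 0.09. Meg3 had 0.08 in congenic and 0.25 in wild-type mice, Miat 0.32 and 0.46, and Snhg11 0.45 and 0.42. In males these 3 had -0.01, -0.20 and 0.05, and in females 0.18, 0.28 and 0.51. Differences between groups in r were not tested.

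Meg3 and Snhg11 were the pair that moved together. Their r was 0.88 (95% interval 0.69 to 0.96; rho 0.76; permutation, adjusted p = 0.00045 for r and 0.0165 for rho), and it was the only one of the 15 pairs to pass. Without mice Sample_4672 and Sample_4731, the farthest from the median of Meg3, r was 0.83, and without mouse Sample_4806 it was 0.88. It was 0.84 in congenic and 0.90 in wild-type mice, and 0.96 in males and 0.67 in females. Of 11707 genes, 0.0342% had an r with Meg3 as far from 0, and 0.00854% one with Snhg11. They lie on chromosomes 12 and 2. The Snhg11 promoter held none of the strings searched, so that search could not show a string shared with Meg3. Both levels are shares of the same total, as are all CPM values.

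The next pair, Miat with Snhg11, had r = 0.60 (rho 0.49; permutation p = 0.0110, adjusted p = 0.0827), and 0.40 without mice Sample_4806 and Sample_4672. It passed when Sample_4739 was left out (r = 0.69; permutation, adjusted p = 0.0279) and within wild-type mice alone (r = 0.84; exact permutation, adjusted p = 0.0408), but within wild-type mice it did not pass without mouse Sample_4806 (r = 0.79; exact permutation, adjusted p = 0.177). Meg3 with Miat had 0.52 (permutation, adjusted p = 0.182) and Malat1 with Meg3 0.50 (permutation, adjusted p = 0.182). Malat1 and Neat1, whose genes are neighbours on chromosome 19, had 0.48 (rho 0.36; permutation p = 0.0606, adjusted p = 0.182), and 0.19 without mice Sample_4806 and Sample_4739. Of these last 3, 0 passed.

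The genes most like each RNA in pattern, by r over the 16 mice, were taken as the 5 highest of 11707 genes and are a description. For Meg3 they were Pnn (0.90), Sfrs18 (0.89), Srsf5 (0.89), Snhg11 (0.88) and Hars2 (0.87), and for Snhg11 Meg3 (0.88), Cspp1 (0.88), A930011O12Rik (0.88), Ogt (0.88) and Ubp1 (0.88). Pnn encodes pinin, a protein of nuclear speckles, and Srsf5 a serine and arginine rich splicing factor. For Malat1 they were Vasn (0.89), A430078G23Rik (0.88), Prkab2 (0.86), Epb4.1 (0.84) and Arnt (0.83). For Neat1 they were 1700047M11Rik (0.88), B230206H07Rik (0.87), Sned1 (0.86), Dusp15 (0.85) and Myh6 (0.84). For Miat they were Camk1 (0.92), Adrbk2 (0.92), Cacna1g (0.92), Lnx1 (0.91) and Col5a1 (0.91). For Rn45s the highest were Rorb (0.88), Echs1 (0.88), Wls (0.87), Pdzd11 (0.87) and Lipo1 (0.87), and the lowest Plk2 (-0.89), Tox4 (-0.88), Zscan22 (-0.85), Fam115a (-0.83) and Etv5 (-0.83).

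The 6 RNAs were also set against the mean log2 CPM of 16 gene lists and the total counts of the mouse, which gives 102 relations adjusted together. Of these 3 passed. Counts of signs are read beside all 11707 genes, of which 58.4% had a positive r with Meg3, 62.5% with Miat, 60.6% with Rn45s and 50.8% with Neat1. Meg3 moved with the nuclear speckle proteins, with r = 0.80 (rho 0.81; permutation, adjusted p = 0.0224 for r and 0.0306 for rho), and r was positive for 17 of their 18 genes, with a median of 0.42. It was 0.73 without the 2 mice farthest from the median of the list, 0.78 without mouse Sample_4806, 0.66 in congenic, 0.88 in wild-type, 0.88 in male and 0.87 in female mice. Among its genes r ran from -0.34 for Rnps1 to 0.90 for Pnn, and Acin1, Srsf2, Ddx39b and Qk were near 0, at 0.05 to 0.09. Qk and Celf3, not core members of speckles, had 0.09 and 0.35. Malat1, the RNA of that compartment, had 0.66 with the list and Snhg11 had 0.63, and neither passed (permutation, adjusted p = 0.0964 for each).

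Miat moved with the cortical excitatory neuron markers, with r = 0.74 (rho 0.73; permutation, adjusted p = 0.0462 for r and 0.0992 for rho). The r was positive for 10 of 10 markers, with a median of 0.68, and their summed level ran from 197 to 503 CPM, highest in mouse Sample_4804, where Miat was at 299 CPM. None of the 10 was at 0 in every mouse. The value was 0.73 without the 2 mice farthest from the median of the list, 0.72 without mouse Sample_4806, 0.62 in congenic, 0.93 in wild-type, 0.37 in male and 0.91 in female mice. With the medium spiny neuron markers Miat had -0.66 (permutation, adjusted p = 0.0964), negative for 11 of 11 markers, where 37.5% of all genes were negative. This r was -0.57 without mouse Sample_4806. What part the share of cortical tissue in a punch has in the level of Miat was not tested.

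Rn45s moved against the medium spiny neuron markers, with r = -0.74 (rho -0.57; permutation, adjusted p = 0.0462 for r and 0.183 for rho), negative for 11 of 11 markers with a median of -0.49, where 39.4% of all genes were negative and 26.1% had an r of at least 0.5 in size. It was -0.64 without mouse Sample_4806 and -0.49 without the 2 mice farthest from the median of the list (permutation p = 0.0778), so the call rested on those mice. Within groups it was -0.76 in congenic, -0.73 in wild-type, -0.50 in male and -0.64 in female mice. Rn45s had -0.64 with immediate early genes, negative for 22 of 22, and 0.61 with oligodendrocyte markers, positive for 10 of 10, and neither passed (permutation, adjusted p = 0.0964 and 0.134). Without mouse Sample_4806 these values were -0.53 and 0.51. With oligodendrocyte markers r was -0.13 in males and 0.84 in females, and with immediate early genes -0.60 and -0.34. The genes that make and trim the Rn45s transcript had r = -0.14 with it (permutation, adjusted p = 0.839). The cytosolic ribosomal proteins had r = 0.30 and rho = 0.52 with Rn45s (permutation, adjusted p = 0.670 and 0.227), positive for 36 of 37 genes. Without the 2 mice farthest from the median of that list r was 0.69 (permutation p = 0.00643). Within groups r was 0.20 in congenic, 0.63 in wild-type, 0.66 in male and 0.85 in female mice. Neat1 had 0.65 with the oligodendrocyte markers, positive for 10 of 10, and did not pass (permutation, adjusted p = 0.0964).

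**Figure D5:**
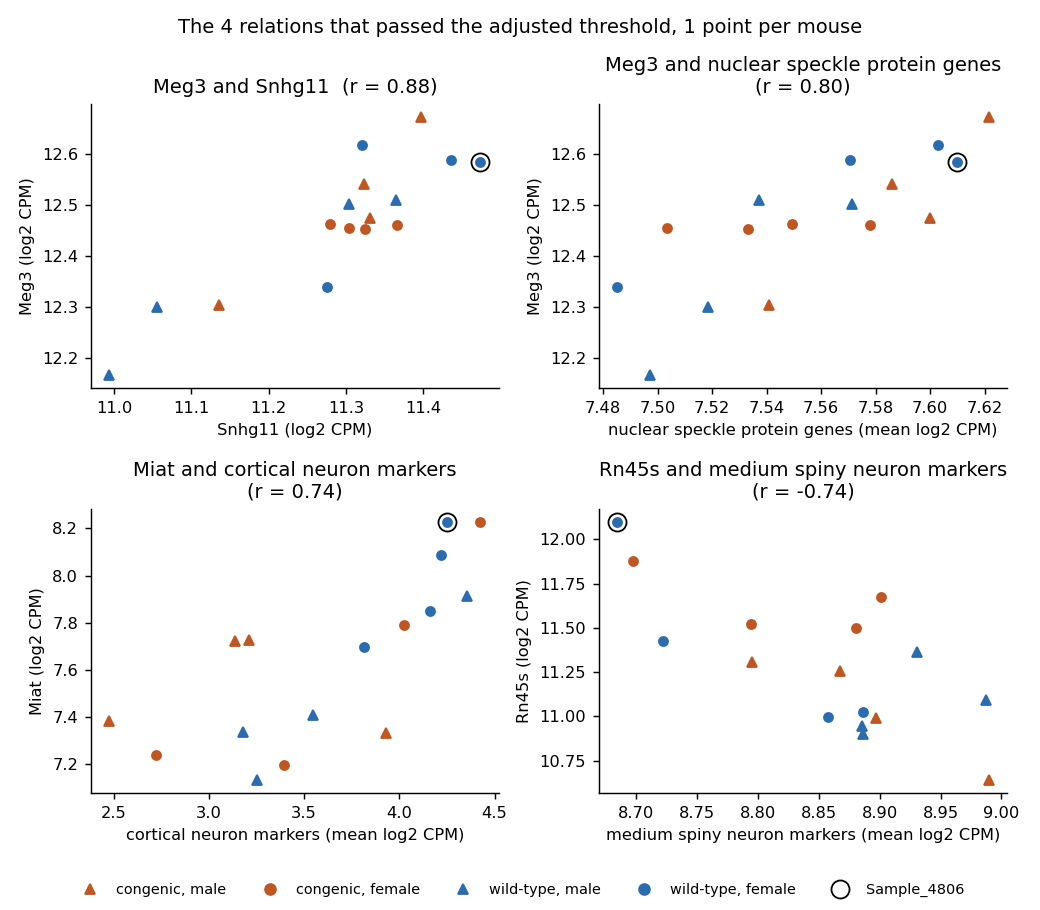
The 4 relations that passed the adjusted threshold for r, with 1 point per mouse, blue for wild-type, orange for congenic, triangles for males, circles for females and mouse Sample_4806 ringed, and all axes in log2 CPM (mean log2 CPM for gene lists). Meg3 rises with Snhg11 (r = 0.88) and with nuclear speckle protein genes (r = 0.80), Miat with cortical neuron markers (r = 0.74), and Rn45s falls with medium spiny neuron markers (r = -0.74).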

How the data were processed

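Striatal RNA of 16 mice was measured by RNA sequencing. The authors deposited whole-number counts per gene and per exon bin, not normalised, for each mouse and lane. Tools listed in the submitters' processing notes are HTSeq 0.6.1p1, FastQC 0.10.1, limma 3.22.7 and edgeR 3.8.6, beside the builds mm9 and mm10. The aligner and the use of strand are not given in the sources used here. Per the labels, reads were 50 bp single-end or 100 bp paired-end, which disagree, and 62.0% of gene table values of 1 to 10 counts were even, so a count may not be a fragment.

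Lanes were summed per mouse and CPM taken over the table total. Genes were filtered with edgeR 4.0.16 (minimum count 10, minimum total 15), scaled by TMM and tested by quasi-likelihood with sex and genotype in the model. Exon use was tested with diffSpliceDGE. DESeq2 1.42.0 and limma 3.58.1 were alternatives, all in R 4.3.3. Adjusted p values are Benjamini-Hochberg and tests are two-sided. Correlations used scipy 1.17.1 and numpy 2.4.6 in Python 3.11.15. The tests were tested on simulated data. For the gene-level test these had the same spread for every gene, smaller than that of Rn45s, Miat and Malat1 among mice. They therefore do not show how that test behaves for those 3 RNAs. The labels do not say how mice were allotted to library preparation, so p values measure the spread between these mice.

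Named genes were the 6 RNAs, members of the lists in list order or with the smallest p, and the 5 genes closest to each RNA in r (for Rn45s also the 5 with the lowest r). Genes of the nuclear speckle list were also named for their r with Meg3. The RNAs and lists were chosen with earlier results of these data known.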

Additional observations from a re-analysis of the deposited data

Results flagged for a closer look

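Among the 6 RNAs in each genotype, 2 mice stood apart by the gap to the next mouse over the range of the 8 mice of the genotype. Rn45s in wild-type mouse Sample_4806 was at 4390 CPM, where the other 7 wild-type mice had 1914 to 2754 CPM. Snhg11 in congenic mouse Sample_4671 was at 2249 CPM, where the other 7 congenic mice had 2487 to 2696 CPM. With 12 groups of 8 looked at, chance marks about 1 in 20. Mouse Sample_4806 is the one whose Xist level goes against its label, and mouse Sample_4671 also had the lowest Rn45s. What sets either mouse apart was not tested.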

How the results depend on the processing

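Of 148 alternative values each for genotype and sex, and 6 for the interaction, 0 called any of the 6 RNAs, with smallest adjusted p values of 0.977, 0.116 and 0.960. The genes called by sex numbered 259 with DESeq2, 13 with lane 4 alone and 12 to 76 with each mouse left out, against 23, lowest without mouse Sample_4672 or Sample_4731 and highest without mouse Sample_4712. The 1 gene called for exon use became 0 with limma diffSplice (209 at an unadjusted p under 0.05), and the cause was not tested. With each mouse left out, genotype values moved by over 1.5 times: Malat1 ran from 0.039 (without mouse Sample_4739) to 0.16 (Sample_4804), Neat1 from 0.030 (Sample_4739) to 0.11 (Sample_4733), Miat from -0.20 (Sample_4804) to -0.041 (Sample_4737) and Rn45s from 0.024 (Sample_4676) to 0.21 (Sample_4806), with 0 called. They spanned 0 for Meg3 (-0.0087 to 0.051) and Snhg11 (-0.0032 to 0.052), and sex values for Malat1 (-0.12 to 0.0042) and Meg3 (-0.064 to 0.0053).

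Against Rn45s, r of Malat1 turned to 0.053 on the CPM scale, 0.54 within wild-type and 0.086 within female mice, and ran from -0.34 to 0.12 with each mouse left out. Neat1 was -0.091 within males and passed within wild-type mice with 0.83. Meg3 was -0.013 within males and -0.099 without the 2 mice farthest out, and Miat -0.20 within males. Within wild-type mice without mouse Sample_4806, a setting chosen after seeing the data, Meg3 had -0.085 and Miat -0.043. Neat1 with Miat, at 0.04, turned to -0.086 with TMM, -0.068 as residuals on genotype and sex, -0.018 in lane 3, -0.019 in lane 5, -0.16 in males and -0.089 in females, and ran from -0.072 to 0.27 with each mouse left out. Malat1 with Miat, at 0.11, turned to -0.40 in congenic and -0.084 in female mice, and ran from -0.083 to 0.28. Meg3 with Snhg11 stayed at 0.81 to 0.91 with each mouse left out, with adjusted p values up to 0.0033, and within congenic or female mice alone it no longer passed (adjusted p = 0.379 and 0.533). No paired analysis was possible because the labels give congenic and wild-type mice no shared mouse number, only shared lanes. The 23 to 83 counts of the long-form stretch of Neat1 limit what depth can show there.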
